A study of Mus musculus with 12 samples.

Results

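The genes described here are 5 members of the Slc16 family of membrane transporters, *Slc16a1*, *Slc16a3*, *Slc16a7*, *Slc16a10* and *Slc16a12*, out of 14 Slc16 genes among the 48526 genes counted in each library. *Slc16a12* and *Slc16a7* were picked from their levels in Purkinje cells (PCs) in these same libraries, so their values in every comparison that includes PCs are given as a description, with no test. *Slc16a1*, *Slc16a3* and *Slc16a10* are listed with them as genes of the same family. The study compared PCs, the fast-conducting cardiomyocytes of the ventricular conduction system, with working ventricular myocytes (VMs) in adult male mice that were either *Ncam-1* wild type (WT) or homozygous for a constitutive *Ncam-1* null allele (KO). All 4 groups carried the *Cntn2*-EGFP reporter, a bacterial artificial chromosome transgene in which *Cntn2* regulatory sequence drives green fluorescent protein, kept on a CD1 background and crossed to the C57BL/6 mutant line, so every library came from mixed-background animals. Dissociated ventricular cells were stained with 50 nM TMRM, a mitochondrial dye that marks living cardiomyocytes, and sorted into GFP-positive PCs and GFP-negative VMs. RNA-seq libraries were made in triplicate for each cell type and genotype. Nothing in the labels says whether the replicates came from separate hearts, so the p-values measure only the spread between these libraries.

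Slc16 proteins are carriers of small organic acids and related solutes. MCT1, the product of *Slc16a1*, moves lactate, pyruvate and ketone bodies together with a proton and is the main monocarboxylate carrier of working myocardium, which burns lactate taken up from the blood. MCT2, the product of *Slc16a7*, does the same with a higher affinity and is best known from neurons, kidney and testis. MCT4, the product of *Slc16a3*, exports lactate from strongly glycolytic cells. *Slc16a10* encodes TAT1, a carrier of aromatic amino acids that also moves thyroid hormone, and *Slc16a12* encodes MCT12, a creatine transporter found in the eye lens and kidney. Several of these carriers reach the plasma membrane only with a partner glycoprotein such as basigin.

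In the GRCm38 annotation (GENCODE release M21) all 5 are protein-coding genes, and no exon of theirs overlaps an exon of another gene. *Slc16a12* (ENSMUSG00000009378) spans chr19:34668403-34747289 on the minus strand, *Slc16a7* (ENSMUSG00000020102) spans chr10:125219270-125389465 on the minus strand, and *Slc16a10* (ENSMUSG00000019838) spans chr10:40033532-40142258 on the minus strand. *Slc16a1* (ENSMUSG00000032902) spans chr3:104638668-104658462 and *Slc16a3* (ENSMUSG00000025161) chr11:120948480-120960868, both on the plus strand. RefSeq promoters (GRCm38.p6), each covering 250 bases before and 50 bases after the start of the gene, were at hand for 4 of the 5, and *Slc16a7* had no entry. The promoters of *Slc16a12*, the member with the widest range between groups, and of *Slc16a1*, the most abundant member, are shown 5′ to 3′ in the direction of transcription so that both can be read side by side. Capitals mark the letters CACGTG, an E-box.
Slc16a12, chr19:34747279-34747578, minus strand: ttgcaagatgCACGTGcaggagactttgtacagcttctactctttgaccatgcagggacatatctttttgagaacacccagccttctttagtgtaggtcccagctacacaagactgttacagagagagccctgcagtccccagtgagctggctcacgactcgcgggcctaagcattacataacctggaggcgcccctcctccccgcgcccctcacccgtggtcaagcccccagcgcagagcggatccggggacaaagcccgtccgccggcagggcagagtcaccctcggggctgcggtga
Slc16a1, chr3:104638414-104638713, plus strand: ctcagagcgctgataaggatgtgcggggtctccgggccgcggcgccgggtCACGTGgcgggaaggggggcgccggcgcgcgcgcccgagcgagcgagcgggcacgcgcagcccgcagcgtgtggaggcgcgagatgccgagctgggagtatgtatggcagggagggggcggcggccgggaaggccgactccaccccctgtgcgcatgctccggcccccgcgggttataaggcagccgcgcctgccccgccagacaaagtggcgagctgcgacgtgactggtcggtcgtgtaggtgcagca

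The *Slc16a1* promoter was rich in G and C, at 73.7% of its bases with 42 CpG sites, which is more than in 97.0% of the 32851 promoters of that length. The *Slc16a12* promoter held 60% G and C with 16 CpG sites, more CpG sites than in 67.0% of promoters, where the median was 7. CACGTG, which reads the same on both strands, started 240 bases before the gene start in *Slc16a12* and 200 bases before it in *Slc16a1*. It was not in the *Slc16a10* and *Slc16a3* windows, and 7.15% of all promoters hold it. The letters CCGGAA (14.9% of promoters) and TATAAA (13.6%), searched on both strands and not overlapping the E-box, were in none of the 4 windows. These motifs were chosen with the sequences in view, and a match describes letters only.

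Each library held 13883427 to 42505705 counts on genes, of which mitochondrial genes took 79.0% to 91.3%. The remaining genes shared 1532393 to 6761356 counts (median 2873658). A count of 3 or fewer in a library was taken as the floor of detection, which covers counting error only. Replicate 2 of WT PCs stood apart. Its share of unaligned read pairs was 63.9%, where the other 11 libraries had 18.8% to 24.7%, and it had counts on 11847 genes, where they had counts on 13571 to 18129. Fold changes of the members, and of pathway genes at an unadjusted p under 0.05, that moved by over 1.5 times without it are given both ways. The deleted gene, *Ncam1*, was counted 83, 34 and 116 times in the WT PC libraries and 0, 1 and 1 times in the KO PC libraries. Counts of *Cntn2*, whose reporter guided the sort, were 543, 231 and 922 in WT PC replicates, 22, 39 and 677 in KO PC replicates and 2 to 7 in every VM library, so replicates 1 and 2 of KO PCs held far less *Cntn2* than the other PC libraries. All 8 cardiomyocyte markers had over 3 counts in all 12 libraries.

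*Slc16a12* was present in PCs and close to the floor in VMs. WT PC replicates 1, 2 and 3 had 183, 210 and 452 counts. KO PC replicates had 7, 26 and 87. WT VM libraries had 2, 0 and 15 counts and KO VM libraries 2, 1 and 4, so that 4 of the 6 VM libraries were at or under the floor. After scaling by edgeR's TMM method, the normalized count was 250.2 ± 165 (SD, n = 3) in WT PCs, 34.4 ± 22.96 (SD, n = 3) in KO PCs, 4.32 ± 5.94 (SD, n = 3) in WT VMs and 2.91 ± 1.68 (SD, n = 3) in KO VMs. The order was WT PC, KO PC, WT VM, KO VM. The lowest WT PC library, at 79.8, lay above the highest KO PC library, at 58.1, and the lowest KO PC library, at 12.3, lay above the highest VM library, at 11.1. The VM groups overlapped each other.

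**Figure D1:**
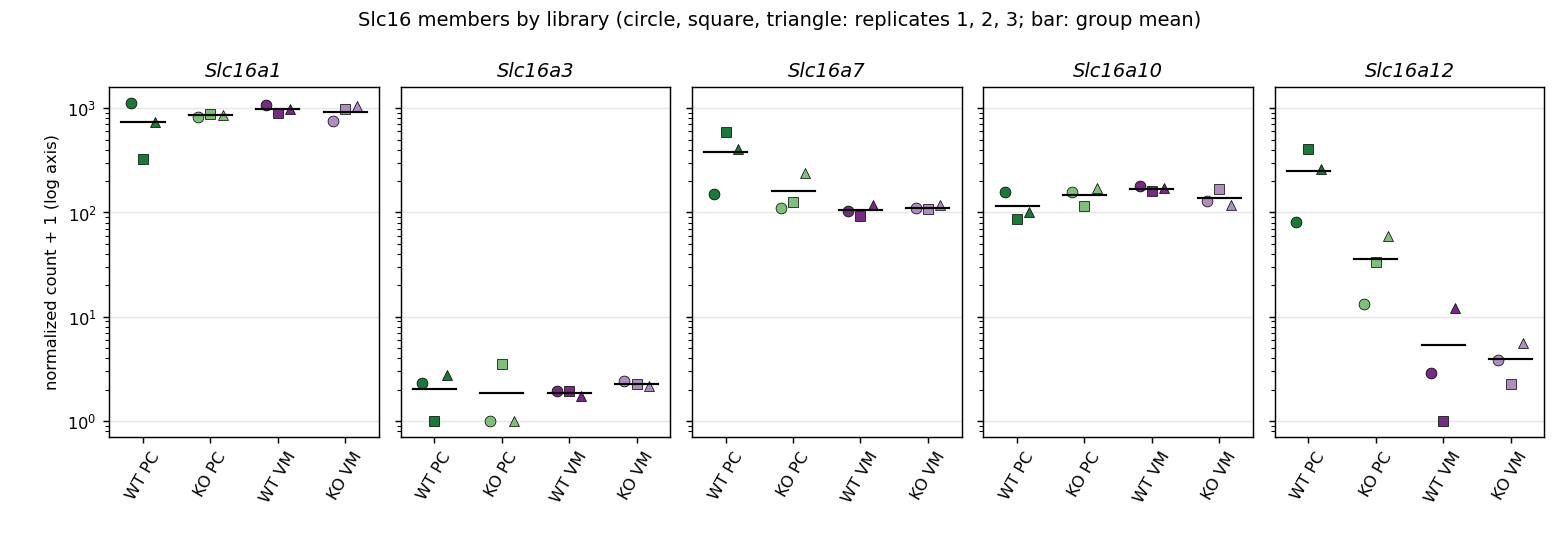
Normalized count plus 1 (log axis) of each Slc16 member in the 12 libraries. Symbols mark replicates 1, 2 and 3 and the black bar the group mean. *Slc16a12* falls into 3 levels, 79.8 to 409.6 in WT PCs, 12.3 to 58.1 in KO PCs and 0 to 11.1 in VMs, while *Slc16a1* and *Slc16a10* overlap between neighbouring groups and *Slc16a3* stays below 2.53.

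The fitted log2 fold change of *Slc16a12* was 5.66 (SE 0.947) for WT PCs over WT VMs and 3.53 (SE 0.703) for KO PCs over KO VMs. Over both genotypes it was 5.03 (SE 0.685). The gene was picked for its PC pattern, so the size of these values carries that choice. Its VM means of 4.32 and 2.91 lay under the filter of 5, and it passed the filter only through its PC counts. In means of normalized counts, WT PCs held 57.9 times the WT VM level and KO PCs 11.8 times the KO VM level. KO PCs over WT PCs came to a fitted −2.76 (SE 0.648), and the mean normalized count of WT PCs was 7.27 times that of KO PCs. The WT PC libraries enter both the WT and the genotype values, which are therefore not independent. The folds over VMs lean on few counts. Without replicate 3 of WT VMs, which holds 15 of that group's counts, the WT value was 7.88, and without replicate 2 of WT PCs it was 5.12. Without that PC library the KO over WT value in PCs was −2.20, and without replicate 3 of KO PCs it was −3.44.

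*Slc16a7* differed in kind, with a clear level in every library and a higher one in some PC libraries. The counts were 341, 302 and 708 in WT PCs, 62, 100 and 359 in KO PCs, 110, 98 and 159 in WT VMs and 77, 83 and 100 in KO VMs. Normalized, WT PC libraries stood at 149, 589 and 409, KO PC libraries at 109, 126 and 239.9, and all 6 VM libraries between 92.2 and 118. The lowest WT PC library was above every VM library, and KO PC replicate 1 lay inside the VM range. Group means were 382 ± 221 (SD, n = 3) in WT PCs, 158 ± 71.1 (SD, n = 3) in KO PCs, 104 ± 12.7 (SD, n = 3) in WT VMs and 110.4 ± 4.78 (SD, n = 3) in KO VMs, and each group overlapped its neighbour in the order of means. The log2 fold change was 1.82 (SE 0.443) for WT PCs over WT VMs and 0.55 (SE 0.267) for KO PCs over KO VMs. For KO over WT in PCs it was −1.23 (SE 0.484). The KO value for PCs over VMs came almost whole from replicate 3 of KO PCs, and without that library it was 0.10. Without replicate 2 of WT PCs, WT PCs exceeded WT VMs by 1.40 and KO PCs were lower than WT PCs by a log2 change of −0.787.

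**Figure D2:**
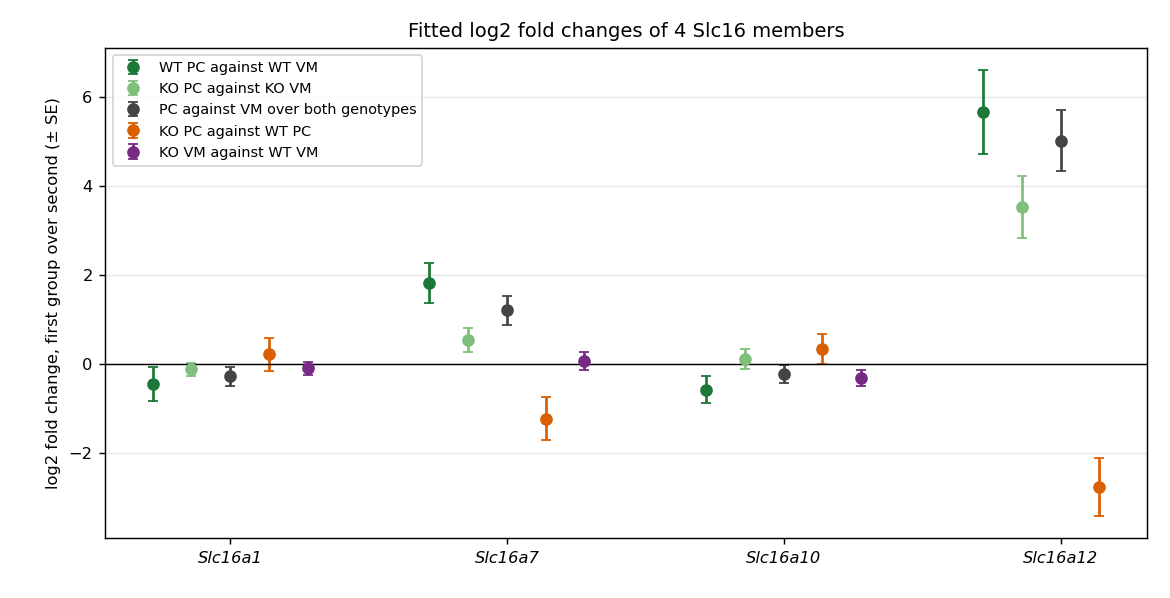
Fitted log2 fold changes (points) with standard errors (bars) of 4 members in 5 comparisons. *Slc16a12* and *Slc16a7* are positive for PCs over VMs (5.66 and 1.82 in WT) and negative for KO PCs over WT PCs (−2.76 and −1.23), whereas *Slc16a1* and *Slc16a10* lie between −0.57 and 0.34.

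Both genes stood in PC libraries beside very different levels of *Cntn2*. *Slc16a12* had 0.337, 0.909 and 0.490 counts per *Cntn2* count in WT PC replicates 1, 2 and 3, and 0.318, 0.667 and 0.129 in KO PC replicates 1, 2 and 3. These ranges overlapped, unlike the normalized counts. *Slc16a7* had 0.628, 1.31 and 0.768 counts per *Cntn2* count in WT PC replicates and 2.82, 2.56 and 0.530 in KO PC replicates. KO PC replicates 1 and 2 thus lay above every WT PC library and replicate 3 below them all. VM libraries, with 2 to 7 *Cntn2* counts, had 11.9 to 53 *Slc16a7* counts per *Cntn2* count. *Slc16a7* was counted in VMs as well, so this ratio does not measure *Slc16a7* per PC. In KO PC replicate 3, whose normalized *Cntn2* of 452 matched the 237 to 533 of WT PCs, *Slc16a12* was at 58.1 and *Slc16a7* at 239.9, against 79.8 to 409.6 and 149 to 589 in WT PCs. Across the 12 libraries *Slc16a12* and *Slc16a7* moved together, with r = 0.900 on the log2 scale and rho = 0.965. That correlation describes libraries that share 4 group means, and both genes were picked from the same pattern. In RNA from sorted bulk cells, fewer PCs in a sort and less RNA per PC cannot be told apart.

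**Figure D3:**
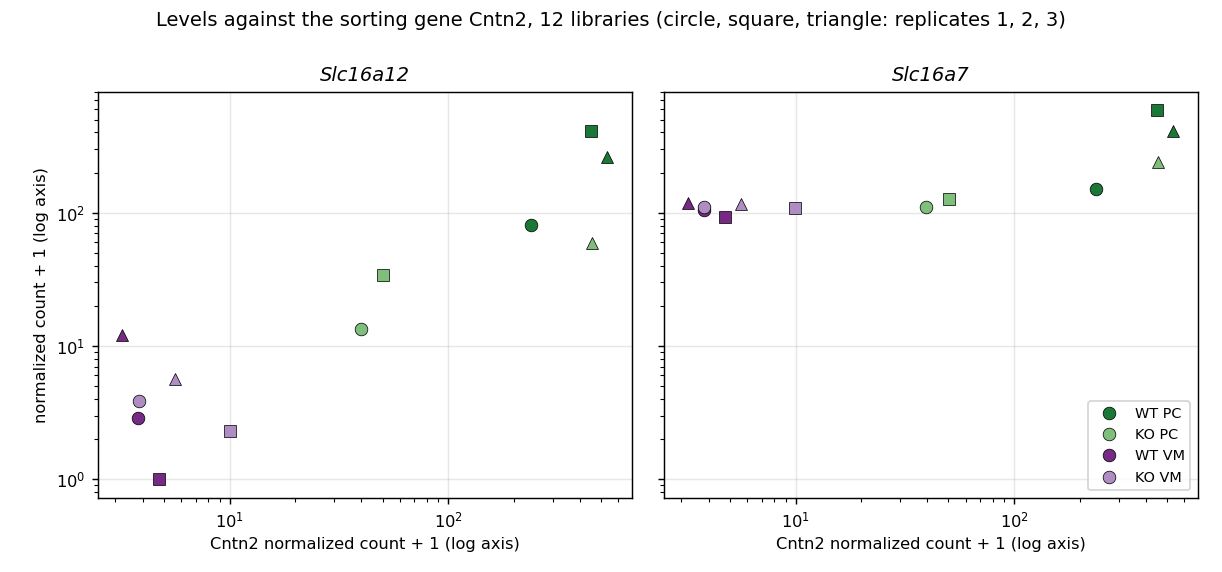
Normalized count plus 1 of *Slc16a12* (left) and *Slc16a7* (right) against that of *Cntn2*, both on log axes, 1 point per library. KO PC replicates 1 and 2 sit at a *Cntn2* level of 38.67 and 49.24, between the VMs and the other PCs, and KO PC replicate 3 sits with the WT PCs on the *Cntn2* axis and below all 3 of them for *Slc16a12*.

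Markers of other cell types moved with the sort as well. The summed normalized count of 6 fibroblast markers ran from 654 to 1672 in PC libraries and from 65.1 to 384 in VM libraries. For 6 endothelial markers the sums were 457 to 1491 and 96.2 to 483, for 5 smooth muscle and pericyte markers 953 to 2345 and 243 to 957, and for 6 macrophage markers 241 to 595 and 9.90 to 130.3. Red cell markers reached 3166 in replicate 2 of WT PCs and 552 in replicate 1, against at most 141 in every other library. Adipocyte markers summed to at most 2.32, with *Adipoq* at 0 in all libraries, and Schwann cell markers summed to at most 12.2. The sum of 8 PC markers was 580 to 1333 in WT PCs, 223 to 994 in KO PCs and 50.8 to 147 in VMs. That of 8 cardiomyocyte markers was 367972 to 632928 in WT PCs, 478431 to 652455 in KO PCs and 575466 to 706798 in VMs. All 6 fibroblast markers had over 3 counts in every PC library, as had 5 or 6 endothelial, 4 or 5 smooth muscle and pericyte and 4 macrophage markers in each PC group. The PC, fibroblast and macrophage marker sums did not overlap between PC and VM libraries, and the other sums did. The part of these cells in the levels of *Slc16a12* and *Slc16a7* was not tested.

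*Slc16a1*, the most abundant member in 11 of the 12 libraries per length of transcript, was not shown to differ between PCs and VMs. WT PC replicates 1, 2 and 3 had normalized counts of 1116, 328 and 745, WT VM replicates 1076, 895 and 993. KO PC replicates stood at 824, 889 and 859 and KO VM replicates at 759, 982 and 1045. The WT PC range thus held the KO PC range, and every neighbouring pair of groups overlapped. WT PCs over WT VMs came to a log2 fold change of −0.46 (SE 0.383, 95% interval −1.21 to 0.30, adjusted p = 0.853 by the quasi-likelihood test of edgeR). KO PCs over KO VMs came to −0.12 (SE 0.147, 95% interval −0.40 to 0.17, adjusted p = 0.885). The WT value rested on the library that stood apart, and without it the log2 fold change was −0.10. Without replicate 1 of WT PCs it was −0.88 (unadjusted p = 0.0388, adjusted p = 0.430 by the same test). Over both genotypes the value was −0.27 (SE 0.209, adjusted p = 0.687, exact permutation p = 0.21 over 400 relabellings within genotype, where the smallest possible is 0.005), and −0.10 without replicate 2 of WT PCs.

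*Slc16a10* was lower in every WT PC library than in any WT VM library, by a narrow margin between the highest of the one and the lowest of the other (156.9 and 158.1). Its normalized counts were 157, 85.8 and 101 in WT PC replicates 1, 2 and 3 and 178, 158 and 170.1 in WT VM replicates. In KO the groups overlapped, with 155, 114 and 172 in PCs and 127, 167 and 116 in VMs. The WT log2 fold change was −0.57 (SE 0.299, 95% interval −1.16 to 0.01, unadjusted p = 0.0870, adjusted p = 0.800 by the quasi-likelihood test of edgeR), and the two-sided exact permutation p was 0.1, the smallest that 3 against 3 libraries allow. In KO it was 0.11 (SE 0.224, adjusted p = 0.936 from the same test). Over both genotypes it was −0.22 (SE 0.199, adjusted p = 0.742, exact permutation p = 0.25), and −0.12 without replicate 2 of WT PCs. The direction in WT did not depend on replicate 2 of PCs, without which the value was −0.40, and without replicate 1 it was −0.86 (unadjusted p = 0.0201, adjusted p = 0.411 by the same test). Limma voom with sample weights gave an unadjusted p of 0.0491 and an adjusted p of 0.490 there.

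Neither of these 2 members passed in edgeR's test of PCs against VMs, at an adjusted or an unadjusted p under 0.05. An adjusted p under 0.05 was found for 0.11% of all genes tested in WT, 0.872% in KO and 1.28% over both genotypes, and an unadjusted p under 0.05 for 6.36%, 9.7% and 11.7%. DESeq2's Wald test called neither as well. *Slc16a3*, the lactate exporter of glycolytic cells, was at the floor throughout. Its counts were 3, 0 and 3 in WT PCs, 0, 2 and 0 in KO PCs, and 1 in each of the 6 VM libraries. No library went over 3, so no fold change is given, and differences between groups were not detectable at this depth.

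Between genotypes, neither VMs nor PCs showed a change in a member that could be tested. In VMs 3 members had enough counts for a test. *Slc16a12* and *Slc16a7* were picked for their pattern in PCs, which may have been judged against their VM levels. Their values between VMs may therefore not be independent of that choice. KO VMs over WT VMs came to −0.09 (SE 0.147, adjusted p = 0.986) for *Slc16a1*, 0.07 (SE 0.195, adjusted p = 0.997) for *Slc16a7* and −0.31 (SE 0.188, adjusted p = 0.959) for *Slc16a10*, all by the quasi-likelihood test of edgeR. The 95% interval for *Slc16a7* ran from −0.31 to 0.45. *Slc16a12* and *Slc16a3* fell under the filter in VMs, and exact permutation p for *Slc16a12* was 1. None of the 3 passed at an unadjusted p under 0.05 (exact permutation p = 0.6, 0.5 and 0.2 in the order given), where 5.12% of all genes did and 0.0373% passed the adjustment.

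In PCs, KO over WT came to 0.22 (SE 0.377, 95% interval −0.52 to 0.96, adjusted p = 0.993) for *Slc16a1* and 0.34 (SE 0.344, 95% interval −0.33 to 1.02, adjusted p = 0.993) for *Slc16a10* in edgeR's quasi-likelihood test. The exact permutation p was 0.7 for *Slc16a1* and 0.3 for *Slc16a10*. Without replicate 2 of WT PCs the sign for *Slc16a1* turned, to −0.13, and *Slc16a10* came to 0.17. Neither passed at an unadjusted p under 0.05, as 3.22% of all genes tested did, and 0% of all genes passed the adjustment in this comparison. These intervals, with lower ends of −0.52 for *Slc16a1* and −0.33 for *Slc16a10*, stand beside the described values of −2.76 for *Slc16a12* and −1.23 for *Slc16a7*. The intervals are approximate and narrower than edgeR's test allows with so few libraries, so they set no firm bound on a change.

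The genotype effect was also compared between the cell types, as the log2 change of KO over WT in PCs less that in VMs. It was 0.31 (SE 0.422, unadjusted p = 0.472) for *Slc16a1* and 0.64 (SE 0.376, unadjusted p = 0.106) for *Slc16a10* in edgeR's interaction test, with adjusted p = 0.999 for each. An unadjusted p under 0.05 was found for 2.9% of all genes and an adjusted one for 0%. The same difference was −1.32 (SE 0.559) for *Slc16a7* and −2.14 (SE 1.43) for *Slc16a12*, given as a description. Without replicate 2 of WT PCs it was −0.0306 for *Slc16a1*, −0.858 for *Slc16a7* and −1.56 for *Slc16a12*, and without replicate 3 of WT VMs it was −4.32 for *Slc16a12*.

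Set against the summed level per kilobase of all 14 Slc16 genes, the make-up of the family varied most among the WT PC libraries. *Slc16a1* supplied 77.9%, 30.6% and 56.6% of that sum in WT PC replicates 1, 2 and 3, and 79.9%, 79.7% and 72.1% in KO PCs. The lowest of these shares came from replicate 2 of WT PCs, the library that stood apart. Replicate 1 of WT PCs lay inside the KO PC range. In the 6 VM libraries it supplied 81.1% to 84.5%. *Slc16a12* supplied 5.91%, 40.6% and 21.1% in WT PCs, 1.27%, 3.12% and 5.18% in KO PCs, and at most 0.970% in VMs. In replicate 2 of WT PCs its level per kilobase, 98.2, was above the 74.04 of *Slc16a1*. *Slc16a7* supplied 3.88%, 20.6% and 11.6% in WT PCs, 3.95% to 7.53% in KO PCs and 2.96% to 4.41% in VMs. *Slc16a10* supplied 4.63% to 9.02% over all PC libraries and 5.63% to 8.62% over VMs. These shares use the summed length of all annotated exons, and with the longest transcript the mean share of *Slc16a1* in WT PCs moved from 55.1% to 52.9% and that of *Slc16a12* from 22.5% to 22.2%. *Slc16a12* and *Slc16a7* shares in PCs carry the choice of these genes and are a description. The shares of *Slc16a1* and *Slc16a10* in PCs are parts of the same sum and carry that choice too.

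**Figure D4:**
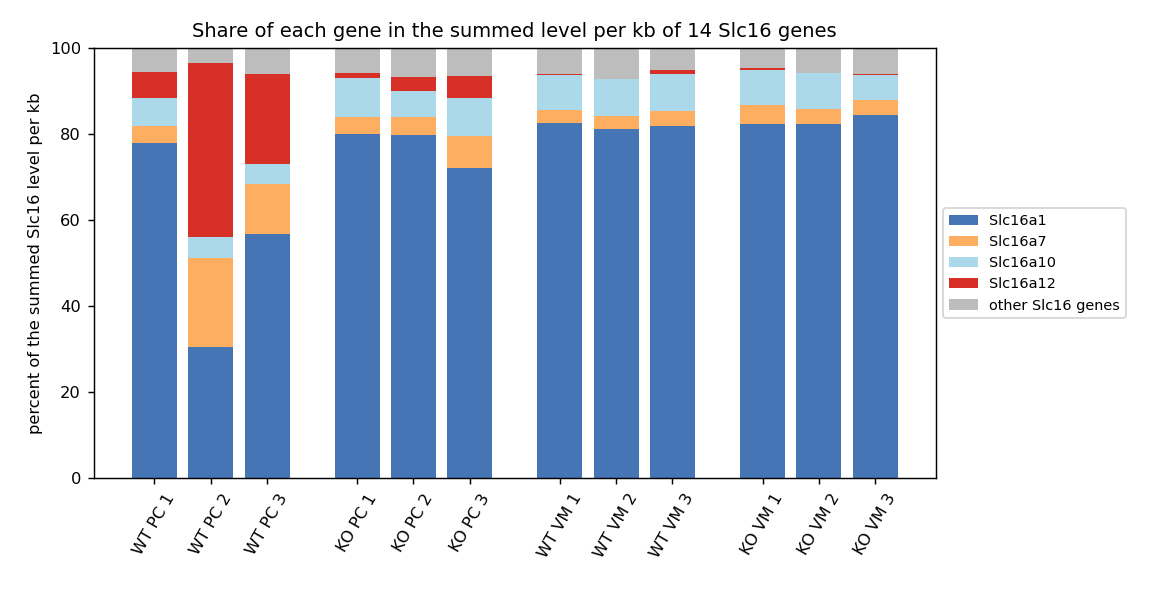
Share of each gene in the summed level per kilobase of the 14 Slc16 genes, in percent, 1 bar per library. *Slc16a1* takes 72.1% or more of the bar in KO PCs and VMs, whereas in WT PCs *Slc16a12* takes 5.91% to 40.6% and *Slc16a7* 3.88% to 20.6%.

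Of the 9 other Slc16 genes, *Slc16a6* was the most abundant, with mean normalized counts of 30.7 to 39.5 in the 4 groups. Its exons overlap those of *Arsg* and *Amz2*, so reads there may have been left uncounted. *Slc16a9* and *Slc16a4* averaged 6.81 to 11.9 and 4.27 to 7.90, and neither reached an unadjusted p under 0.05 in any comparison in which it was tested. *Slc16a13* and *Slc16a8* averaged at most 4.90 and 2.93, and *Slc16a5*, *Slc16a11* and *Slc16a14* at most 0.872.

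The partner glycoproteins split by abundance. *Bsg*, which encodes basigin, the partner of MCT1 and MCT4, had mean normalized counts of 1472 to 1669 in the 4 groups. *Nptn*, which encodes neuroplastin, had 237 to 295. *Emb*, which encodes embigin, a partner of MCT2, reached no more than 5 counts in a library and was not tested. *Bsg* came to −0.06 (SE 0.283) and *Nptn* to 0.30 (SE 0.267) for WT PCs over WT VMs, with adjusted p = 0.974 and 0.855 in edgeR's quasi-likelihood test. Neither reached an unadjusted p under 0.05 in any of the 6 comparisons. The mitochondrial pyruvate carrier genes *Mpc1* and *Mpc2* likewise gave log2 fold changes of −0.04 (SE 0.181) and −0.00297 (SE 0.106) for PCs over VMs over both genotypes. The sodium-coupled monocarboxylate carriers *Slc5a8* and *Slc5a12* had 0 counts in every library.

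Around the transporters, several genes of pyruvate oxidation had lower levels in PCs than in VMs, none of them past the adjustment in edgeR's test. Over both genotypes, 4 of 15 tested genes of lactate and pyruvate enzymes were lower in PCs and none higher at an unadjusted p under 0.05, where 334 genes of 11323 were lower and 987 higher. Their median log2 fold change was −0.23, against 0.02 over all genes tested. The cardiomyocyte marker sums were also lowest in PC libraries, and the part of the cell make-up of the sorts in these values was not tested. *Pdha1* and *Pdhb*, which encode the subunits of pyruvate dehydrogenase E1, came to −0.30 (SE 0.102, unadjusted p = 0.00947) and −0.34 (SE 0.113, unadjusted p = 0.00865) in edgeR's quasi-likelihood test. *Dld*, the E3 subunit, came to −0.23 (SE 0.108) and *Pdk1*, a kinase that inhibits the complex, to −0.50 (SE 0.185), or −0.36 without replicate 2 of WT PCs. *Pdha1*, *Pdhb* and *Pdk1* kept an unadjusted p under 0.05 in 12 of 12 omissions of a library and *Dld* in 4. Over all 8 lists 8 of 53 tested genes (15.1%) had such a p, against 11.7% of all genes, and 14 of 53 (26.4%) without replicate 2 of WT PCs, against 15% of all genes. No gene of the 8 lists passed the adjustment in any of the 6 comparisons in edgeR's test. DESeq2's Wald test called *Pdha1* (adjusted p = 0.0418) for PCs over VMs over both genotypes, and limma voom with sample weights called *Pdha1*, *Pdhb* and *Dlat*, all lower in PCs. With no filter on low counts in edgeR *Pdk4* passed in VMs (adjusted p = 0.0113), lower in KO. It kept an unadjusted p under 0.05 there under only 3 of 8 alternatives.

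The lactate dehydrogenase genes were abundant in all groups. *Ldhb*, the heart-type subunit, averaged 1783 to 2166 per kilobase and *Ldha*, the muscle-type subunit, 759 to 949.9 per kilobase. For ketone body use, 0 of 5 genes passed at an unadjusted p under 0.05, with a median of −0.23, and *Oxct1*, the enzyme that activates ketone bodies, came to −0.23 (SE 0.123). For glucose uptake and glycolysis, 1 of 17 did, the hexokinase gene *Hk2*, at −0.40 (SE 0.140, unadjusted p = 0.0114 in edgeR's test), with a list median of −0.07. For creatine, 2 of 4 tested genes were lower in PCs at an unadjusted p under 0.05 in edgeR's test, where 334 of 11323 genes were. They were the creatine transporter gene *Slc6a8* at −0.37 (SE 0.174, and −0.23 without replicate 2 of WT PCs) and the mitochondrial creatine kinase gene *Ckmt2* at −0.33 (SE 0.116). *Slc6a8* kept such a p in 6 of 12 omissions of a library and lost it under voom, and *Ckmt2* kept it in 12 of 12. *Slc16a12*, the other creatine carrier of the set, was picked for its PC pattern, so its higher level in PCs is only a description. For thyroid hormone and aromatic amino acid transport, 0 of 4 tested genes passed, and 5 of the 9 on that list, *Dio1*, *Dio2* and *Dio3* among them, were too low to test.

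**Figure D5:**
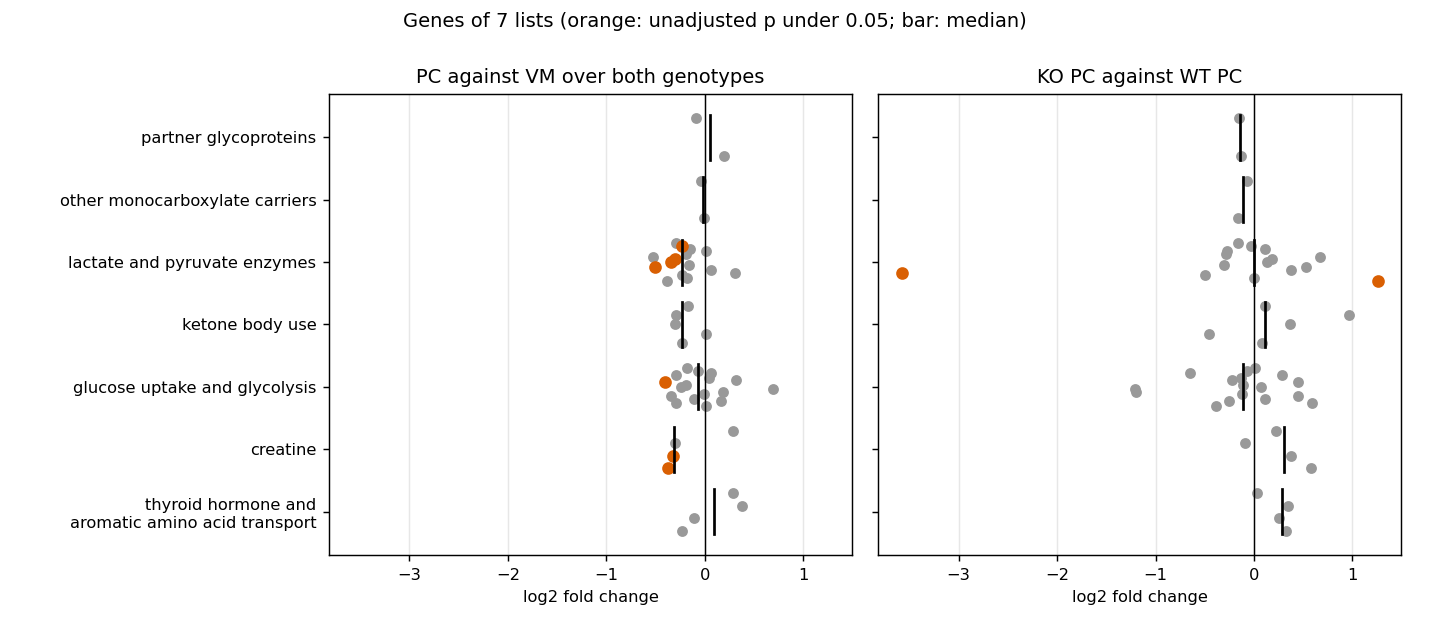
Log2 fold changes of the tested genes of 7 lists around the transporters for PCs over VMs over both genotypes (left) and KO PCs over WT PCs (right). Orange points have an unadjusted p under 0.05 and black bars are list medians, −0.23 for lactate and pyruvate enzymes on the left and 0.00241 on the right. None passed the adjustment.

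Within each genotype, in edgeR's test on all 6 libraries, the share of list genes at an unadjusted p under 0.05 was near that of all genes. It was 4 of 52 (7.69%) in WT against 6.36% and 4 of 51 (7.84%) in KO against 9.7%. The WT count was 10 of 55 (18.2%, against 10.4% of all genes) without replicate 2 of PCs. With limma voom and sample weights the counts were 15 of 52 in WT (28.8%, against 10.2% of all genes) and 7 of 51 in KO (13.7%, against 9.84%). In WT, *Pdhb* and *Pdk1* were lower in PCs by a log2 change of −0.45 (SE 0.185) and −0.73 (SE 0.316), and *Pdk3* and *Hk1* were higher by 1.95 (SE 0.772) and 0.66 (SE 0.259), each at an unadjusted p under 0.05. In KO, *Ldhd*, which encodes a D-lactate dehydrogenase, was lower in PCs by −0.75 (SE 0.288). *Pdhx* and *Dlat* of the pyruvate dehydrogenase complex and *Eno3*, the muscle enolase, were lower there by −0.40 (SE 0.142), −0.30 (SE 0.143) and −0.31 (SE 0.144). Without replicate 2 of WT PCs, *Pdk1* in WT came to −0.44 and *Pdk3* to 1.48 (unadjusted p = 0.0586 in edgeR's test). *Pdhx* kept an unadjusted p under 0.05 in 6 of 6 omissions of a library, and each of the others lost it in 2 or more.

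Between KO PCs and WT PCs, 2 of 52 tested list genes (3.85%) had an unadjusted p under 0.05 in edgeR's test, close to the 3.22% of all genes. *Pdk3*, an inhibitory kinase, had 20, 13 and 22 counts in WT PCs and 2, 0 and 1 in KO PCs (unadjusted p = 0.0148, adjusted p = 0.993). *Pdp2*, an activating phosphatase, had normalized counts of 58.4, 37.1 and 74.5 in WT PCs and 163, 154 and 98.9 in KO PCs, a log2 change of 1.26 (SE 0.387, unadjusted p = 0.00867, adjusted p = 0.993). In VMs 5 of 50 list genes (10%) reached that level, against 5.12% of all genes. *Ldhd*, *Bdh1*, *Slc2a4* and *Hk1* were higher in KO by 0.83 (SE 0.275), 0.67 (SE 0.238), 0.37 (SE 0.162) and 0.53 (SE 0.213), and *Pdk4* was lower by −0.61 (SE 0.290). Each of the 5 lost that level in 1 to 3 of the 6 omissions of a library, and *Pdk4* ran from −1.02 to −0.13. The interaction of genotype and cell type reached it for 2 of 53 list genes (3.77%, against 2.9% of all genes), *Ldhd* (−1.11, SE 0.524) and *Pdk3* (unadjusted p = 0.0144 in edgeR's test). Without replicate 2 of WT PCs *Ldhd* came to −0.70 there (unadjusted p = 0.113 in edgeR's test).

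The genes whose pattern over the 12 libraries was most like that of *Slc16a12*, among 8100 genes with a mean normalized count above 20, were *Dpysl3* (Pearson r = 0.953 on log2 normalized counts), *Slit2* (0.948), *Map1a* (0.947), *Ephb1* (0.939) and *Pcp4* (0.938). Mean normalized counts of *Slit2*, an axon guidance ligand, were 819.9 in WT PCs, 205 in KO PCs, 24.7 in WT VMs and 25.8 in KO VMs. Those of *Ephb1*, an ephrin receptor, were 80.2, 23.3, 1.68 and 0.899. For *Slc16a7* the 5 were *Ramp1* (r = 0.972), *Ephb3* (0.958), *Pcp4* (0.955), *Dpysl3* (0.953) and *Rabgap1l* (0.952). *Ramp1*, a subunit of the CGRP receptor, averaged 95.6 in WT PCs, 43.4 in KO PCs, 27.3 in WT VMs and 29.7 in KO VMs. Without replicate 2 of WT PCs, 4 of the 5 stayed among the first 5 for each gene. The gene lost from both was *Pcp4*, which fell under the cut of 20 there. Its mean normalized counts were 74.6 in WT PCs, 5.92 in KO PCs and 0 in both VM groups, so it had entered through WT PCs. Without that library its r was 0.930 with *Slc16a12* and 0.911 with *Slc16a7*. The points share 4 group means and library depth, so r is a description.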

How the data were processed

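The 5 members, the gene lists and the tests were chosen with earlier results of these data known. For each of 12 libraries the authors deposited raw counts of read pairs per gene, without normalization. Per the labels, 50 bp paired-end reads were aligned to mm10 with STAR 2.5.0c and counted with HTSeq 0.6.0 on a GRCm38 annotation (release 74). The strand setting is not given in the sources used here. The RNA had been amplified before library preparation.

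The 5 HTSeq classes of unassigned pairs were left out. Groups came from the sample titles. Counts were scaled with TMM and tested in R 4.3.3 with edgeR 4.0.16 (glmQLFit, glmQLFTest, two-sided). Genes had to exceed a mean normalized count of 5 over the libraries compared, and p-values were adjusted by Benjamini-Hochberg over all genes tested, with a threshold of 0.05. A comparison of 2 groups used their 6 libraries. Comparisons over both genotypes and the interaction used all 12. The 95% intervals are 1.96 standard errors wide on each side, an approximation that is narrower than the quasi-likelihood test allows with so few libraries. Exact permutation tests and correlations used log2(normalized count + 2). Named genes were the members, the other Slc16 genes and partners, list genes past the adjusted or, with fewer than 5 of those, the unadjusted threshold, and the 5 most similar genes. Genes named for abundance or as the 0 of a list (*Ldha*, *Ldhb*, *Oxct1*, *Mpc1*, *Mpc2*, *Slc5a8*, *Slc5a12*, *Dio1*, *Dio2*, *Dio3*) were added after their values were seen. Alternatives were DESeq2 1.42.0, its size factors, TMM without the 37 mitochondrial genes, filterByExpr, no filter, limma 3.58.1 voom with sample weights, a replicate block, 1 fit of all libraries, and omission of each library. The values of single list genes under these alternatives were written out after the data were seen. The fits were tested on simulated data. Some listed genes are not reported here.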

Additional observations from a re-analysis of the deposited data

Results flagged for a closer look

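Set against the WT mean, *Slc16a10* and *Slc16a7* were the members whose KO libraries all pointed in opposite directions in the cell types. For *Slc16a10*, all 3 KO PC libraries (normalized counts 155, 114 and 172) lay above the WT PC mean of log2 normalized counts, by 0.0344 to 0.622. All 3 KO VM libraries (127, 167 and 116) lay below the WT VM mean, with differences of −0.535 to −0.0142. The closest library in each cell type was thus near the mean. Each KO range overlapped the WT range of its cell type. The difference between the genotype effects was 0.64 on the log2 scale (SE 0.376). It did not pass edgeR's interaction test (unadjusted p = 0.106, adjusted p = 0.999), and without replicate 1 of WT PCs it was 0.95 (unadjusted p = 0.0206, adjusted p = 0.653). For *Slc16a7* the signs were the other way round. All 3 KO PC libraries lay below the WT PC mean, and all 3 KO VM libraries lay above the WT VM mean by 0.0371 to 0.154 on the log2 scale, inside the range of the WT VM libraries. Its difference between the genotype effects was −1.32 (SE 0.559), and −0.858 without replicate 2 of WT PCs. It was not tested, since the PC levels of *Slc16a7* were used to choose it.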

How the results depend on the processing

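Apart from the omission of a library, none of the alternatives turned the direction of a member's log2 fold change or took a tested one past the adjusted threshold. With filterByExpr, *Slc16a12* dropped out of KO PCs against KO VMs and gave no value. The values of *Slc16a1* ran from 0.0725 to 0.39 in KO PCs over WT PCs, from −0.10 to −0.0212 in KO VMs over WT VMs, and from 0.11 to 0.36 in the interaction. Counts of list genes at an unadjusted p under 0.05 moved by over 1.5 times in 52 of 368 cases, 35 upward and 17 downward, 17 of them under voom. With the longest transcript *Slc16a10* in WT PCs moved to 21.2 per kilobase. Counts past the adjusted threshold moved as follows. For PCs against VMs over both genotypes the count was 0 as reported, 1 under DESeq2 and 3 under voom with sample weights. For KO VMs against WT VMs it was 0 as reported and 1, *Pdk4*, with no filter. Leaving out a library turned the sign of small differences. *Slc16a10* in KO PCs over KO VMs ran from −0.0402 to 0.28, *Slc16a1* in KO PCs over WT PCs from −0.13 to 0.65, *Slc16a1* in KO VMs over WT VMs from −0.18 to 0.0293, and the interaction for *Slc16a1* from −0.0306 to 0.74. None of these passed the adjustment. It moved 3 described values by more than the spread between replicates, *Slc16a12* in WT PCs over WT VMs (5.12 to 7.88), *Slc16a7* in KO PCs over KO VMs (0.10 to 0.75) and the interaction for *Slc16a12* (−4.32 to −1.56). Adjusted p for *Slc16a1* and *Slc16a10* was 0.305 or more in all of these omissions. Unadjusted p fell under 0.05 for *Slc16a1* over both genotypes without replicate 1 of WT PCs (log2 −0.47, edgeR adjusted p = 0.305) and for *Slc16a10* between VMs without replicate 2 of KO VMs (log2 −0.46, edgeR adjusted p = 0.727).

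With the replicate number as a block, WT PCs over WT VMs came to 5.80 for *Slc16a12*, 1.64 for *Slc16a7*, −0.62 for *Slc16a1* (adjusted p = 0.868) and −0.63 for *Slc16a10* (adjusted p = 0.868), and the block changed no call of a member. Whether the numbers pair the libraries was checked by correlating deviations from group means between same-numbered libraries. In WT PCs with WT VMs r ran from 0.0813 to 0.207 and 6 of 6 libraries correlated best with their own number. In KO PCs with KO VMs r ran from −0.00956 to 0.121 and 3 of 6 did. In the source names, WT PC and WT VM libraries with the same replicate number also share their number. The labels do not say whether such libraries came from the same hearts, so pairing in WT stays undecided. The tests reported above, apart from the block, did not use the numbers as pairs. With Spearman's rho in place of r, 2 of the 5 genes most like *Slc16a12* and 1 of the 5 most like *Slc16a7* were kept. At these depths genes with 3 or fewer counts a library, *Slc16a3* among them, cannot be compared.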
